A study of Rattus norvegicus with 12 samples.

Results

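The transcripts of cytochrome P450 families 1 to 4 were compared between the livers of ethanol-drinking and water-drinking rats. Members were taken by gene name alone, as every listed gene named Cyp1, Cyp2, Cyp3 or Cyp4 with its subfamily letter and number, and 48 genes matched. Of these, 39 had an RPKM (reads scaled to transcript length and to mapped reads) above 0 in at least 1 liver, out of 21718 transcripts above 0 among 34391 listed. Each gene is represented by its transcript with the highest mean RPKM. The 39 members comprise 2 genes of family 1, 20 of family 2, 4 of family 3 and 13 of family 4. All 12 animals were adult females of iP10a, an inbred alcohol-preferring strain, and their livers gave 1 poly(A) library each. The 6 EtOH animals had free access to 10, 20 and 30% ethanol (v/v) beside water and food for 23 weeks, and the 6 control animals had water and food only. All were 38 weeks old, except EtOH animal 6 at 39 weeks. Blood alcohol was undetectable when the animals were killed, per the study's methods.

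Cytochrome P450 enzymes are heme proteins, mostly of the endoplasmic reticulum, that use electrons from NADPH to insert an oxygen atom from molecular oxygen into their substrate. Families 1 to 3 oxidise drugs, steroids and other foreign or hormone-like compounds, and family 4 mainly hydroxylates fatty acids and eicosanoids at or near the end of the chain. Their genes are read under ligand-activated factors: the aryl hydrocarbon receptor for family 1, CAR and PXR for subfamilies 2b and 3a, and PPAR-alpha for subfamily 4a. Cyp2e1, the microsomal ethanol-oxidising enzyme, is best known for control at the level of its protein, which ethanol protects from degradation.

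The number of reads behind each RPKM could be recovered, and ranged from 2610238 to 4318141 reads per control liver and from 3945593 to 6030028 per EtOH liver. Hepatocyte markers far exceeded those of Kupffer, stellate, endothelial and bile duct cells in every liver (6 of 7 matched by name, summed RPKM 85040 to 119631). The Kupffer cell markers, the highest of these others, summed to 67.1 to 126, and all transcripts to 515781 to 577525. Control liver 3 stood apart among the members. It held the highest of the 6 control values for 15 of the 27 members with a mean RPKM of at least 1, against 28.0% of all 11086 transcripts at that level. Of the P450s that differ between the sexes of rats, Cyp2a1 and Cyp3a9, which predominate in females, were among the 6 most abundant members. Cyp2c11, the main male form, was listed at 0 in all 12 livers. The male-predominant Cyp2a2 (mean RPKM 25.6), Cyp3a18 (4.56) and Cyp3a2 (1.76) were above 0 in all 12. The female-predominant Cyp2c12 and Cyp2c7 and the male-predominant Cyp2c13 matched no listed name.

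Mean RPKM over the 12 livers ranged from 0.0104 for Cyp4f18 to 2459 for Cyp2e1, and 13 members had a mean of at least 100, 27 of at least 1 and 12 below 1. After Cyp2e1 the highest belonged to subfamilies 2a, 2c, 2d, 3a, 4a and 4f. The 9 genes listed at 0 in every liver were Cyp2a3, Cyp2b12, Cyp2b15, Cyp2b21, Cyp2c11, Cyp2g1, Cyp2j16, Cyp2w1 and Cyp4f40. The coefficient of variation among control livers had a median of 14.3% over the 27 members with a mean of at least 1. It was smallest for the leukotriene hydroxylase Cyp4f1, at 3.71%, and largest for Cyp3a23/3a1, at 49.9%.

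**Figure D1:**
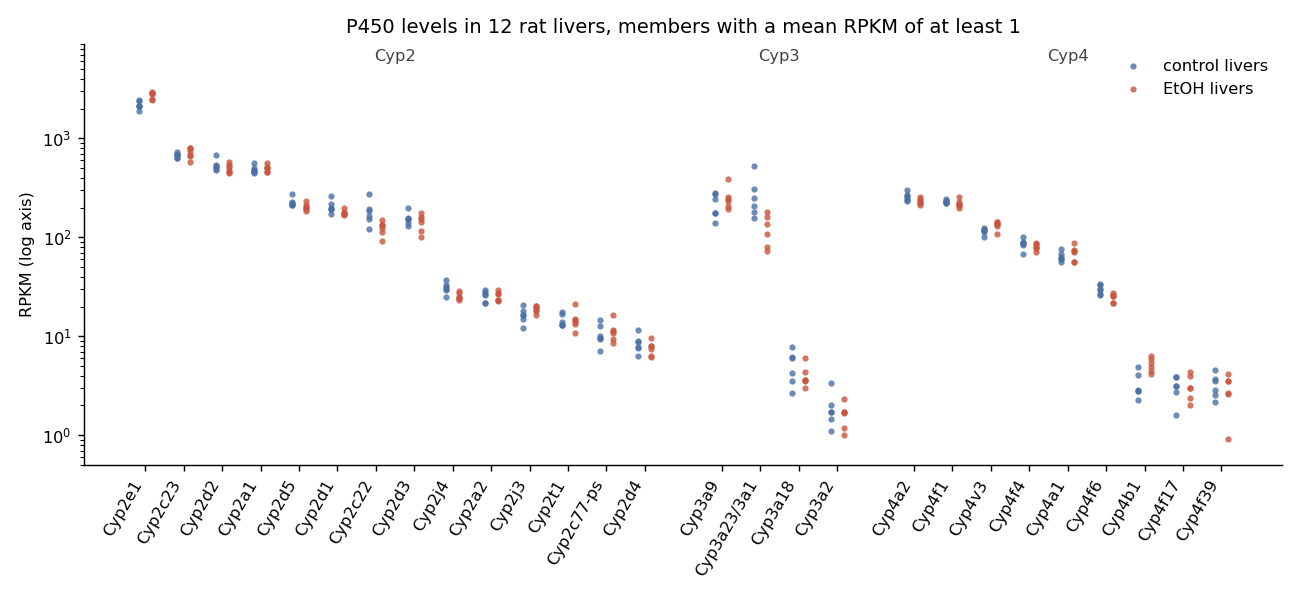
RPKM on a log axis of the 27 members with a mean RPKM of at least 1, by family and falling mean level, 1 point per liver (6 control, 6 EtOH). Cyp2e1 lies highest in all 12 livers, between 1880 and 2913, and both groups overlap in every gene.

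Families 1 to 4 differed little as a whole between EtOH and control livers. Of the 39 members, 1 passed the test, Cyp4b1, which was higher in the EtOH livers (limma on quantile-normalized log2 of RPKM plus 0.5, Benjamini-Hochberg adjustment over all transcripts, adjusted p below 0.05). Of all 21718 transcripts 2.42% passed it, 1.13% higher and 1.29% lower in the EtOH livers. At an unadjusted limma p below 0.05, 7 members differed, 5 of them higher (Cyp4b1, Cyp4v3, Cyp2e1, Cyp4a1 and Cyp2j3) and 2 lower (Cyp3a23/3a1 and Cyp2c22) in the EtOH livers; 15.5% of all transcripts passed this limit. All 7 were among the 27 members whose mean RPKM was 1 or more, and of all transcripts at that level 24.3% passed the same limit. In 0 of 39 members were the groups free of overlap in RPKM, against 3.1% of all transcripts.

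The members did not lean to one side. The median log2 fold change, EtOH over control, was 0.0072 over the 39 members and 0.00019 over all transcripts, with 20 members higher and 19 lower. Quantile normalization moved abundant transcripts upwards in the EtOH livers: relative to the RPKM as deposited, the median log2 fold change of transcripts at an RPKM of at least 100 was shifted by 0.13, and that of transcripts between 10 and 100 by 0.15. On the RPKM as deposited 16 members were higher and 23 lower, and Cyp4f1, Cyp2d3, Cyp4f4 and Cyp2a2 changed sign. The means given below are of the RPKM as deposited, and the log2 fold changes are after quantile normalization. Fold changes on this scale understate those of low genes.

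**Figure D2:**
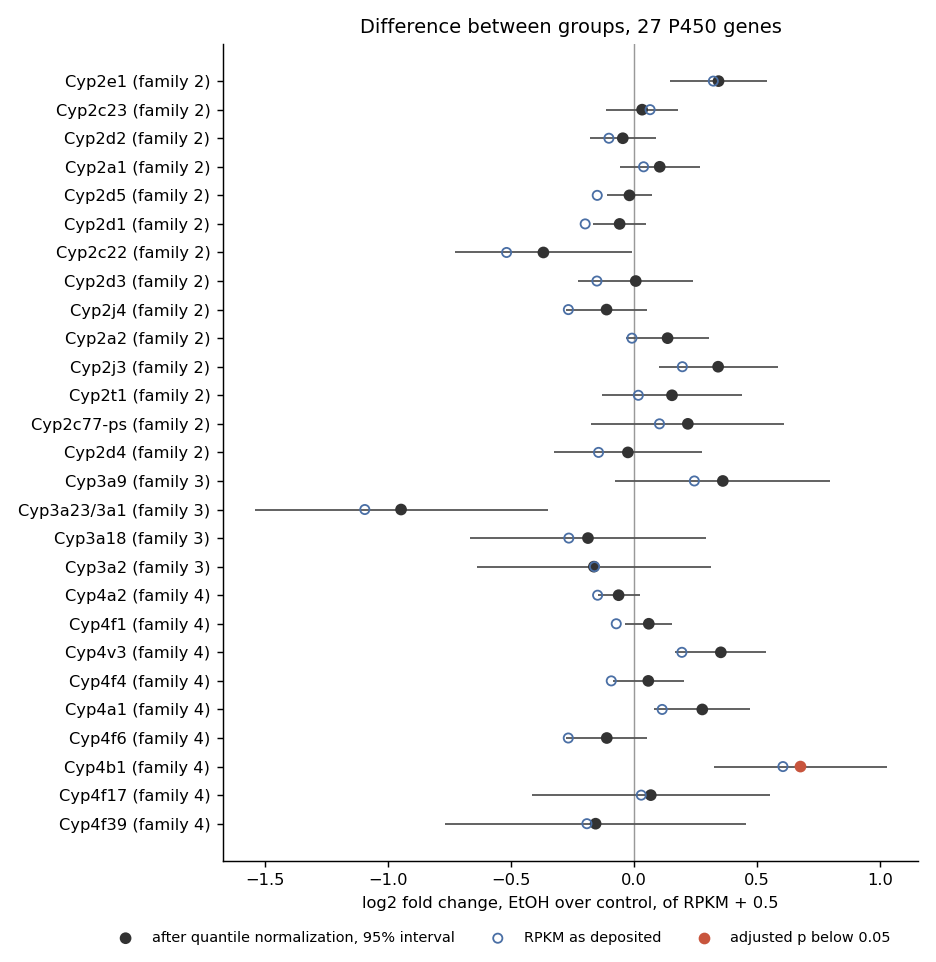
Log2 fold change (EtOH over control, RPKM plus 0.5) of the 27 members with a mean RPKM of at least 1; filled points with 95% intervals are after quantile normalization, open circles are the RPKM as deposited. Cyp4b1 (0.68, in red) alone passed the test, and Cyp3a23/3a1 (-0.95) lies farthest from 0.

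Cyp2e1 was the most abundant of the 39 members in every liver and ranked between 22nd and 35th among all transcripts. P450s of these families that matched no listed name, and P450s of other families, were not compared with it by name. Its RPKM was 1880 at the lowest, 2137 at the median and 2464 at the highest in the control livers, and 2427, 2817 and 2913 in the EtOH livers. All 6 EtOH livers lay above the control median, and 5 of 6 above the highest control liver. EtOH liver 1, at 2427, was the only one to fall within the control range. The mean was 2731 ± 208 in EtOH and 2187 ± 214 in control animals (SD, n = 6 each), a ratio of 1.25. The log2 fold change was 0.34 ± 0.09 (SE), with a 95% interval from 0.15 to 0.54, and missed the threshold in limma (adjusted p = 0.0718). Taken alone, without adjustment over transcripts, the same difference on the RPKM as deposited had p = 0.0043 in a two-sided exact permutation test over the 12 livers, where 0.0022 is the smallest p that 6 against 6 allow. The call depended on the processing: the limma adjusted p was 0.037 after median scaling, 0.0249 with the 11086 transcripts of mean RPKM at least 1 and 0.0317 with the transcripts of each gene summed. It was above the threshold on the RPKM as deposited (0.0608), without a trend (0.0902), in the test on square-root values (0.0989) and in all 12 fits that left out 1 liver (0.0547 to 0.142).

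A second listed transcript of Cyp2e1 was far less abundant, with an RPKM of 12.3 to 20.2 in control and 16.6 to 27.5 in EtOH livers. Its log2 fold change was 0.52 ± 0.13 (SE, limma adjusted p = 0.054), and all 6 EtOH livers lay above its control median. Cyp2e1 is a gene of hepatocytes around the central vein. Of the 7 tested markers of these cells, 2 passed the limma test, against 2.42% of all transcripts, and 4 had an unadjusted p below 0.05. Oat, an enzyme of ornithine breakdown, rose on both scales. Lgr5, a receptor of the Wnt pathway, was lower, from 8 reads in the control and 3 in the EtOH libraries, and did not pass as deposited (limma adjusted p = 0.13). Slc1a2 and Lect2 were higher and did not pass (limma adjusted p = 0.0827 and 0.228). Rhbg (log2 fold change 0.30) and Axin2 (0.18) were higher and Tbx3 (-0.32) lower. None of them passed (limma adjusted p = 0.614, 0.656 and 0.662). The RPKM of the 7 summed to between 306 and 453 in control and between 517 and 636 in EtOH livers, most of it Oat. Their part in the Cyp2e1 difference was not tested. In whole tissue, fewer cells of a type and less RNA per cell cannot be told apart.

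The Cyp2e1 promoter is shown as the start of the most abundant member. In the files Cyp2e1 lies at 1:200918521-200928919, as the authors list it; the sources used here give no genome build for that position. RefSeq places the 250 bases before the gene at chr1:205269717-205269966 of GRCr8, plus strand. Capitals mark AGGTCA or AGTTCA, the half-sites of nuclear receptors, on either strand.
Cyp2e1: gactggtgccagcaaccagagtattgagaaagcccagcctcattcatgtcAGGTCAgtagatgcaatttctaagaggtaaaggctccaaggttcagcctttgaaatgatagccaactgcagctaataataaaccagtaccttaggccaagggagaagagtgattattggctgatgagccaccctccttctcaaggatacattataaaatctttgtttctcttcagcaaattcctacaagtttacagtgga
The single match, AGGTCA, began 200 bases before the start. Windows of 250 bases were given for 31 members, of which 7 (22.6%) held AGGTCA, against 13.7% of 27457 promoters. AGTTCA was found in 7 of 31 (22.6%) and in 12.1% of all promoters.

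**Figure D3:**
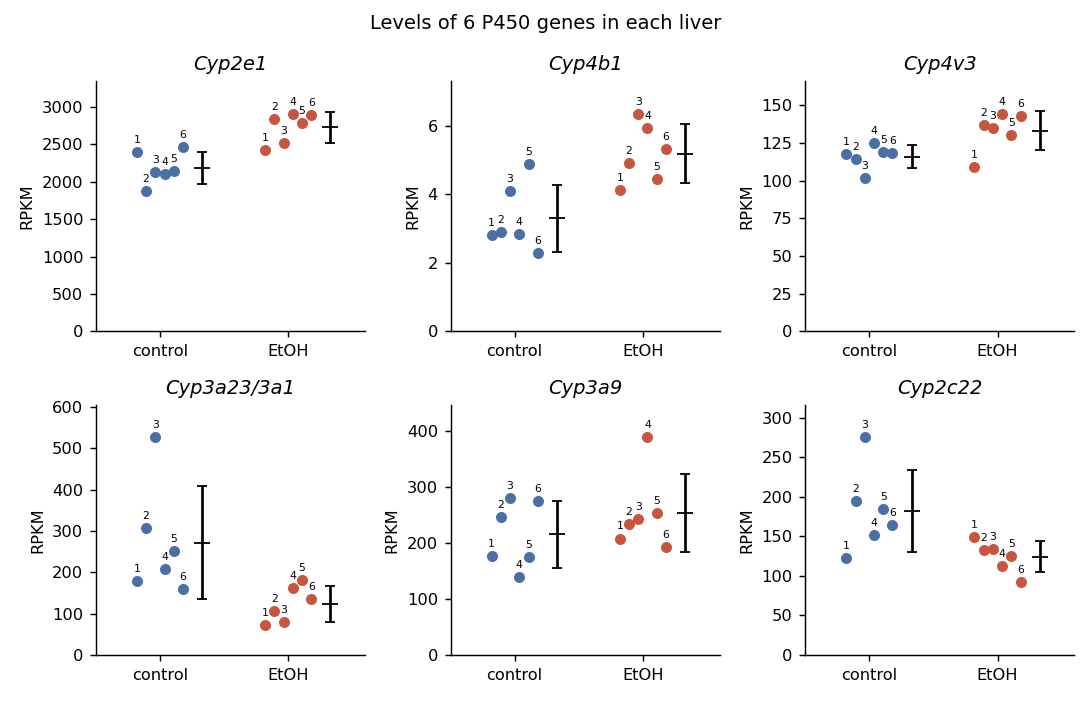
RPKM of 6 P450 genes in each liver (points numbered by animal within group, bars mean ± SD, n = 6 each; every axis starts at 0). EtOH livers lie above the control median in 6 of 6 for Cyp2e1 and Cyp4b1 and in 5 of 6 for Cyp4v3, and in 0 of 6 for Cyp3a23/3a1 and Cyp2c22; for Cyp3a9 the EtOH livers other than liver 4 lie within the control range.

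In family 4, the fatty acid hydroxylases, 1 of 13 members passed the test, in the direction that 1.13% of all transcripts did. Cyp4b1 oxidises fatty acids and some plant toxins and is best known from the lung. Its RPKM was low in these livers, at 2.27, 2.86 and 4.87 (lowest, median, highest) in control and 4.12, 5.11 and 6.35 in EtOH animals. All 6 EtOH livers lay above the control median and 4 above the highest control liver, which was control liver 5. The mean rose from 3.30 ± 0.98 to 5.18 ± 0.86 (SD, n = 6 each), with a log2 fold change of 0.68 ± 0.16 (SE, limma adjusted p = 0.0496). These values rest on 144 reads over the 6 control and 321 over the 6 EtOH libraries. The call was lost in 9 of 12 fits that left out 1 liver, whose adjusted p ranged from 0.0389 to 0.106, while the log2 fold change stayed between 0.61 and 0.76. It held without control liver 3 (limma adjusted p = 0.0444), control liver 5 (0.0389) or EtOH liver 1 (0.0475), and was lost without any other liver. It was also lost on the RPKM as deposited (0.0735), with a pseudocount of 1 (0.0509), without a trend (0.0525) and in the test on square-root values (0.0722).

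Cyp4v3, the counterpart of a human fatty acid hydroxylase needed for a healthy retina, is described because it lay next to the threshold, and was chosen after its values were seen. Its RPKM was 102, 118 and 125 (lowest, median, highest) in control and 109, 136 and 145 in EtOH livers. EtOH liver 1 fell within the control range and the other 5 lay above it. The log2 fold change was 0.35 ± 0.09 (SE, limma adjusted p = 0.0512). The adjusted p was 0.046 without control liver 6 and 0.0322 without EtOH liver 1, and stayed above the threshold without any other liver. On the RPKM as deposited the log2 fold change was 0.19, with a limma adjusted p of 0.173.

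Cyp4b1 lies on chromosome 5 beside the Cyp4a genes, starting 1595 bases after the listed end of Cyp4a1. The Cyp4a genes hydroxylate fatty acids and are the best-known P450 targets of PPAR-alpha. Cyp4a1 had an RPKM of 55.9 to 76.1 in control and 56.2 to 88.6 in EtOH livers, and 1 EtOH liver lay above the control range. Its log2 fold change was 0.28 ± 0.09 (SE, limma adjusted p = 0.137), and 0.11 on the RPKM as deposited. Cyp4a2, the most abundant member of family 4, had a mean of 232 ± 15.5 in EtOH and 258 ± 23.5 in control livers (SD, n = 6 each), with a log2 fold change of -0.06 (95% interval -0.15 to 0.02, limma adjusted p = 0.496). Cyp4a8 had 2 reads in the control and 8 in the EtOH libraries, too few for a comparison. No Cyp4a gene passed the test, and the 2 abundant ones differed in sign.

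The Cyp4f genes hydroxylate leukotriene B4 and long-chain fatty acids. Of 7 members none passed the limma test (0 with an unadjusted p below 0.05), 4 were higher and 3 lower, and 2 against 5 on the RPKM as deposited. Cyp4f1, the most abundant, had an RPKM of 222 to 245 in control and 198 to 255 in EtOH livers. Its log2 fold change was 0.06 (95% interval -0.04 to 0.16) after quantile normalization and -0.07 as deposited. For Cyp4f6, whose RPKM was 26.2 to 33.6 in control and 21.6 to 27.6 in EtOH livers, 6 of 6 control livers lay above the EtOH median. Its log2 fold change was -0.11 (limma adjusted p = 0.543). Cyp4f4 (mean 86.1 in control, 80.4 in EtOH livers) and Cyp4f17 (3.06 and 3.13) differed by less than their spread. Cyp4f39 had the lowest log2 fold change of the family's members with a mean of at least 1, at -0.16 ± 0.28 (SE, limma adjusted p = 0.819), with EtOH liver 1 at 0.927 and the other EtOH livers between 2.61 and 4.14. Cyp4f5 had 44 and 77 reads in the control and EtOH libraries, and Cyp4f18 and Cyp4x1 had 1 read each in all.

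None of the 4 members of family 3 passed the limma test (1 with an unadjusted p below 0.05), and 3 were lower and 1 higher in the EtOH livers. They include the member with the log2 fold change farthest from 0, Cyp3a23/3a1. Cyp3a23/3a1 is the rat form best known for its response to dexamethasone and to ligands of PXR. Its RPKM was 159, 230 and 527 (lowest, median, highest) in control and 73.5, 122 and 181 in EtOH livers. No EtOH liver reached the control median, and 4 of 6 lay below the lowest control liver. The mean was 123 ± 43.6 in EtOH and 272 ± 136 in control animals (SD, n = 6 each), 2.21 times higher in the controls. The log2 fold change was -0.95 ± 0.27 (SE), with a 95% interval from -1.54 to -0.35 and a limma adjusted p of 0.0979. It passed the threshold when the fit was limited to transcripts whose mean RPKM was 1 or more (limma adjusted p = 0.0472), a fit in which 7.76% of all transcripts passed.

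Control liver 3, at 527, was the highest by far for Cyp3a23/3a1. Without it the control mean was 221 ± 59.9 (SD, n = 5) and the log2 fold change -0.76, with a limma adjusted p of 0.149. Cyp3a9, the female-predominant member of the subfamily and the most abundant of family 3, had an RPKM of 139, 211 and 280 in control and 194, 239 and 389 in EtOH livers. Its groups overlapped widely, with EtOH liver 4 alone above the control range. The log2 fold change was 0.36 ± 0.20 (SE, limma adjusted p = 0.444). The ratio of Cyp3a23/3a1 to Cyp3a9 within a liver ran from 0.576 to 1.88 in control and from 0.327 to 0.711 in EtOH livers, so that control liver 6 alone fell within the EtOH range. The male-predominant Cyp3a18 (mean 5.10 in control, 4.01 in EtOH livers) and Cyp3a2 (1.90 and 1.61) were low, and neither passed the limma test (adjusted p = 0.701 and 0.743).

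The promoters of Cyp3a23/3a1 and Cyp3a2 are shown because both hold the same pair of half-sites and yet differ in level. Of 27457 RefSeq promoters, 2 (0.00728%) held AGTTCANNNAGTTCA on either strand, a direct repeat of AGTTCA with 3 bases between, and these 2 were those of Cyp3a23/3a1 and Cyp3a2. No other pair of half-sites or spacing was counted. Since the windows of these related genes also resemble each other, the rarity describes the sequences and is not a separate result about them. Both genes lie on the minus strand of chromosome 12, with the 250 bases before the start at chr12:14398804-14399053 and chr12:14343858-14344107 of GRCr8. Sequences are written 5′ to 3′ on the gene's own strand, and capitals mark AGGTCA, or AGTTCA read on the other strand as TGAACT. The repeat is made of AGTTCA and counts among its matches too.
Cyp3a23/3a1: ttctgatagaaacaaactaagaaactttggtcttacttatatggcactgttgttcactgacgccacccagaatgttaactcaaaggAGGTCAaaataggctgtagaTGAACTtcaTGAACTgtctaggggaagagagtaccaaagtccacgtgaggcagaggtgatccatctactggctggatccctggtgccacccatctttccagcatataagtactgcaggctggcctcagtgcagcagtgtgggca
Cyp3a2: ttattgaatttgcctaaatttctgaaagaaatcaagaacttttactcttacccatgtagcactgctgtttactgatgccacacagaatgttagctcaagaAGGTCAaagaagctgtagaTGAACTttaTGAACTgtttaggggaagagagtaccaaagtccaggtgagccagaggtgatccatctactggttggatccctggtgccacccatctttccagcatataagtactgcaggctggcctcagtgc
The repeat began 144 bases before the start of Cyp3a23/3a1 and 131 before that of Cyp3a2, and each had AGGTCA ahead of it, at 164 and 150 bases. Aligned without gaps, the windows were identical at 165 of 237 bases (69.6%). With nearly the same repeat, Cyp3a23/3a1 had a mean of 272 RPKM in the control livers and Cyp3a2 of 1.90. A match of letters is a description of the sequence and does not show that a factor binds there.

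Of the 19 members of family 2 outside Cyp2e1 none passed the limma test (2 with an unadjusted p below 0.05, Cyp2c22 and Cyp2j3). Cyp2c22, which hydroxylates retinoic acid, had the lowest log2 fold change of those with a mean of at least 1. Its RPKM was 122, 174 and 275 (lowest, median, highest) in control and 92.2, 129 and 150 in EtOH livers, and 0 of 6 EtOH livers lay above the control median. The log2 fold change was -0.37 ± 0.17 (SE, limma adjusted p = 0.308). Control liver 3 was again the highest, and without it the control mean fell from 182 to 163 and the log2 fold change was -0.27 (limma adjusted p = 0.478).

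The arachidonic acid epoxygenases of family 2 did not share a direction. Cyp2c23, the next most abundant member after Cyp2e1, had an RPKM of 628 to 733 in control and 578 to 807 in EtOH livers (log2 fold change 0.03, 95% interval -0.11 to 0.18, limma adjusted p = 0.844). Cyp2j3 had an RPKM of 12.2 to 20.9 in control and 16.3 to 20.3 in EtOH livers, with a log2 fold change of 0.34 ± 0.11 (SE, limma adjusted p = 0.14). Its neighbour on chromosome 5, Cyp2j4, ran from 25.2 to 37.0 in control and from 23.3 to 28.9 in EtOH livers, with a log2 fold change of -0.11 (limma adjusted p = 0.544). All 6 control livers lay above the EtOH median of Cyp2j4, and 5 of 6 EtOH livers above the control median of Cyp2j3.

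The Cyp2d genes, counterparts of the human drug-metabolising CYP2D6, lie together on chromosome 7 and included 4 of the 13 members with a mean of at least 100. Their means in control and EtOH livers were 539 and 501 for Cyp2d2, 227 and 204 for Cyp2d5, 206 and 178 for Cyp2d1, 156 and 142 for Cyp2d3, and 8.47 and 7.57 for Cyp2d4. After quantile normalization the 5 log2 fold changes lay between -0.06 and 0.0072, with limma adjusted p of at least 0.649. On the RPKM as deposited all 5 were lower in the EtOH livers, with a median of -0.15, close to the shift of all abundant transcripts. Control liver 3 was the highest control for each Cyp2d gene; without it the control means of Cyp2d2 and Cyp2d5 were 511 and 218. Members of one subfamily resemble each other, and how reads that match several of them were assigned can affect their values.

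The steroid hydroxylase Cyp2a1 had an RPKM of 448 to 561 in control and 454 to 563 in EtOH livers, with a log2 fold change of 0.10 (95% interval -0.06 to 0.27, limma adjusted p = 0.571). The male-predominant Cyp2a2 had means of 25.7 and 25.5. Cyp2t1 (14.5 and 14.9) and the listed pseudogene Cyp2c77-ps (10.6 and 11.3) also differed by less than their spread.

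The lowest members include Cyp1a1 and Cyp1b1 of family 1 and the Cyp2b genes. Cyp1a2, a further family 1 target of the aryl hydrocarbon receptor, matched no listed name, so its level is not known here. Cyp1a1, the classic target of the aryl hydrocarbon receptor, had an RPKM of 0.392 to 0.565 in control and 0.243 to 1.08 in EtOH livers, from 28 and 37 reads. Its log2 fold change was -0.14 ± 0.19 (SE, limma adjusted p = 0.748). Cyp1b1, another target, had 1 read in all 12 livers. Cyp2b1 and Cyp2b2, which phenobarbital induces through CAR, had 3 and 5 reads in the control and 3 and 2 in the EtOH libraries. Differences in these genes were not detectable at this depth. The other members of family 2 with a mean below 1 were Cyp2u1 (51 and 43 reads), Cyp2j10 (11 and 10), Cyp2s1 (5 and 10) and Cyp2c79 (0 and 2). Read totals are not scaled to depth, and the EtOH libraries were mostly deeper. Scaled to depth, Cyp2u1 had a mean of 1.05 RPKM in control and 0.635 in EtOH livers (log2 fold change -0.44, limma adjusted p = 0.432). None of the 12 members below a mean of 1 passed the limma test (0 with an unadjusted p below 0.05).

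In sum, the RPKM of all 39 members was 6057 ± 369 in control and 6352 ± 434 in EtOH livers (SD, n = 6 each), or 1.10% ± 0.04 and 1.20% ± 0.07 of all RPKM. Family 2 gave 4767 ± 213 and 5196 ± 340, family 3 gave 495 ± 174 and 383 ± 98.7, and family 4 gave 795 ± 40.8 and 773 ± 55.5. Family 1 gave 0.478 ± 0.089 and 0.478 ± 0.318, from Cyp1a1 and Cyp1b1 alone. P450s that matched no listed name, Cyp1a2 among them, are outside these sums and the shares below. Without Cyp2e1 the sum of the members was 3870 ± 416 in control and 3621 ± 271 in EtOH livers. Cyp2e1 took 36.2% ± 3.98 of the members' RPKM in control livers (31.4% to 40.8%) and 43.0% ± 1.59 in EtOH livers (40.8% to 45.5%). The Cyp2d genes took 18.7% ± 1.36 and 16.3% ± 0.97, and the Cyp3a genes 8.07% ± 2.33 and 5.99% ± 1.28. Shares add to 100% within a liver, so a larger share of Cyp2e1 lowers the others, and no test was made of them.

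**Figure D4:**
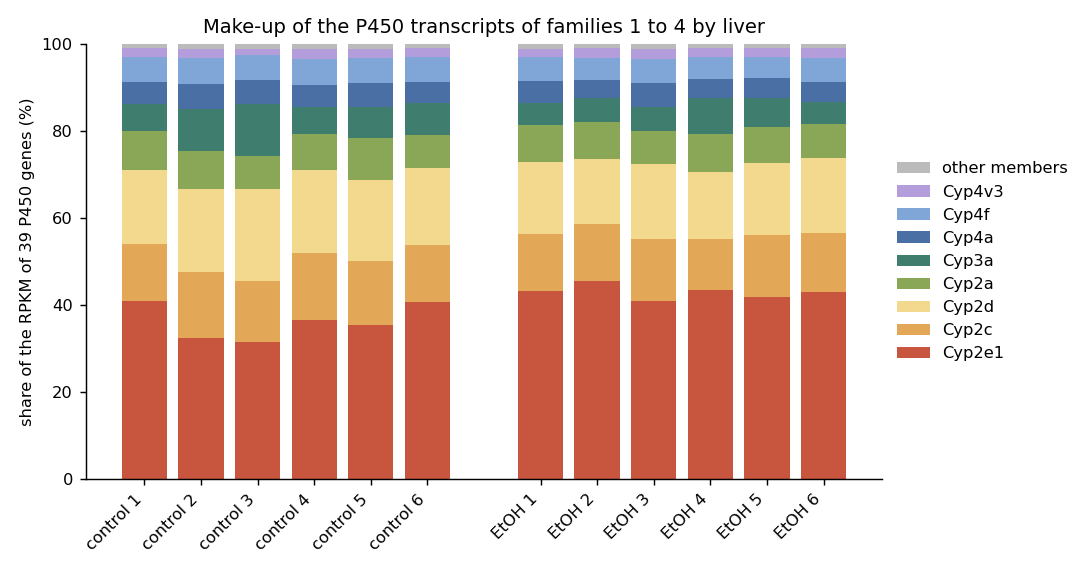
Share (%) of the summed RPKM of the 39 members taken by Cyp2e1, by subfamilies, by Cyp4v3 and by the remaining 12 genes in each of 6 control and 6 EtOH livers; bars are stacked to 100%. The Cyp2e1 share runs from 31.4% to 40.8% in control and from 40.8% to 45.5% in EtOH livers, and control liver 3 has the largest Cyp3a share.

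The genes that P450s depend on were examined as 5 lists of 52 genes, of which 45 were tested. Of these 5 passed the limma test (11.1%, against 2.42% of all transcripts), 4 of them higher and 1 lower in the EtOH livers. On the RPKM as deposited 9 passed, where 3.56% of all transcripts did, 1 of them higher and 8 lower, so the balance of directions depends on the scale. The higher ones included 3 of 19 tested regulators, where 1.13% of all transcripts passed as higher. Of the 19, 9 had an unadjusted p below 0.05. Nr3c1, the glucocorticoid receptor, rose from 18.8 ± 2.20 to 25.2 ± 3.13 RPKM (log2 fold change 0.56 ± 0.10 SE, limma adjusted p = 0.0161), and passed on both scales. Rxra, the partner of the nuclear receptors that regulate P450s, rose from 81.9 ± 2.84 to 88.0 ± 3.70 (0.24 ± 0.05 SE, limma adjusted p = 0.023, and 0.242 as deposited). Nr1i2, which encodes PXR, rose from 49.2 ± 6.26 to 55.5 ± 7.15 (0.34 ± 0.08 SE, limma adjusted p = 0.0443, and 0.435 as deposited). The call of Nr1i2 was also lost in 10 of 12 fits that left out 1 liver, all but those without control liver 4 (limma adjusted p = 0.0418) or EtOH liver 1 (0.024). That of Rxra was lost without control liver 2 (limma adjusted p = 0.0512) or EtOH liver 2 (0.0593), 3 (0.0525) or 4 (0.0513). Ppara (log2 fold change 0.59) and Ahr (0.47) were higher and did not pass (limma adjusted p = 0.0962 and 0.133). Cebpa (-0.52), Cebpb (-0.46) and Bcl6 (-0.78) were lower and did not pass either (limma adjusted p = 0.219, 0.231 and 0.25). Cyp3a23/3a1, a target of PXR, had the lower mean in the EtOH livers and did not pass (limma adjusted p = 0.0979). The part of PXR in its level was not tested.

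Onecut1, a liver transcription factor chosen after its values were seen, had 0 RPKM at the lowest, 10.3 at the median and 28.7 at the highest in control livers and 31.0, 37.1 and 50.3 in EtOH livers. The groups did not overlap, and the gene did not pass (limma adjusted p = 0.117).

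Among other targets of PPAR-alpha, 1 of 9 tested passed, against 2.42% of all transcripts. Of the 9, 5 had an unadjusted p below 0.05, and the median log2 fold change was -0.08. Cpt1a (0.96) and Angptl4 (0.58) were higher and did not pass (limma adjusted p = 0.0887 and 0.202). Plin2 (-0.30) and Fgf21 (-0.91) were lower and did not pass either (limma adjusted p = 0.0857 and 0.27). Plin2 passed as deposited (limma adjusted p = 0.0118), and its groups did not overlap. Pdk4, a kinase that holds back glucose oxidation, passed and rose from 21.7 ± 6.94 to 35.9 ± 6.82 RPKM. Its log2 fold change was 0.89 ± 0.21 (SE, limma adjusted p = 0.0478, and 0.0504 as deposited). Its call was lost in 10 of 12 fits that left out 1 liver, with an adjusted p of 0.104 at most, and held without control liver 6 (limma adjusted p = 0.0108) or EtOH liver 6 (0.0454). Of 2 tested targets of the aryl hydrocarbon receptor outside family 1 none passed (1 with an unadjusted p below 0.05). Nqo1, a quinone reductase, had an RPKM of 13.7 to 30.7 in control and 7.29 to 13.5 in EtOH livers without overlap (limma adjusted p = 0.124, and 0.0465 as deposited).

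Among the genes of heme and of electron supply 1 of 15 tested passed, against 2.42% of all transcripts. Alad, an enzyme of heme synthesis, fell from 111 ± 16.6 to 75.1 ± 7.93 RPKM, and all EtOH livers lay below the lowest control liver (log2 fold change -0.41 ± 0.07 SE, limma adjusted p = 0.0174). It was 1 of 10 tested genes of heme synthesis and breakdown to pass. Of 5 electron donors none passed the limma test after quantile normalization (4 with an unadjusted p below 0.05). Por, the reductase that feeds all microsomal P450s, had 38.9 ± 10.9 and 34.6 ± 6.28 RPKM (limma adjusted p = 0.963). Cyb5b, a cytochrome b5 of the mitochondrial outer membrane, had 90.5 ± 8.27 in control and 66.0 ± 6.48 in EtOH livers, and Cyb5a, the microsomal form, 989 ± 65.8 and 846 ± 14.9. Both were lower in every EtOH liver than in every control liver, with limma adjusted p of 0.104 and 0.124 after quantile normalization and 0.00882 and 0.0453 as deposited.

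**Figure D5:**
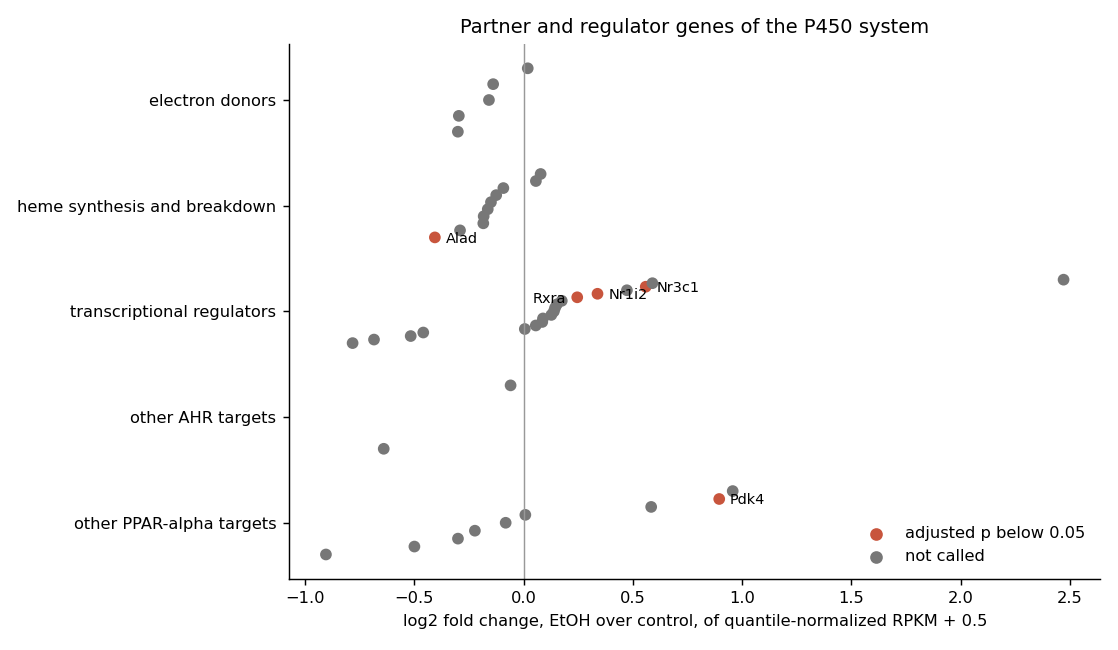
Log2 fold change (EtOH over control, quantile-normalized RPKM plus 0.5) of the 45 tested partner and regulator genes, 1 point per gene in 5 lists; red points passed limma at an adjusted p below 0.05. Nr3c1 (0.56), Nr1i2 (0.34), Rxra (0.24) and Pdk4 (0.89) lie to the right and Alad (-0.41) to the left; the point at 2.47 is Onecut1, which did not pass.

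Markers of the other cells of the liver were counted beside these results. Of 4 tested Kupffer cell markers 2 rose after quantile normalization, Clec4f and Cd163, where 2.42% of all transcripts passed. Neither passed on the RPKM as deposited (limma adjusted p = 0.0898 and 0.0608). The 4 summed to 67.1 to 108 RPKM in control and 95.4 to 126 in EtOH livers. None of 4 stellate cell (2 with an unadjusted p below 0.05), 2 endothelial (1) or 3 cholangiocyte markers (0) passed the limma test. Among 6 tested hepatocyte markers 1 passed, against 2.42% of all transcripts. This was Cps1, higher in EtOH livers. Of 8 tested periportal markers 3 passed, against 2.42% of all transcripts. These were Gls2, Sds and Pck1, all higher, of which Gls2 did not pass as deposited (limma adjusted p = 0.103). Ass1 and Hsd17b13 were higher and did not pass (limma adjusted p = 0.0608 and 0.203). Hal (log2 fold change 0.04), Arg1 (-0.11) and Cdh1 (-0.10) did not pass either. Periportal markers summed to 2579 to 2968 RPKM in control and 2912 to 5127 in EtOH livers, the largest part being Ass1 (means 1490 and 2008). The part of cell make-up in the P450 results was not tested.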

How the data were processed

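Livers of 6 EtOH and 6 control rats were measured by poly(A) RNA sequencing with 101-nucleotide paired-end reads, all libraries in a single lane. Reads were mapped by the authors in CLCbio Genomics Workbench, and they deposited 1 RPKM value per transcript and liver; no genome build is named in the sources used here. Columns holding the authors' own comparison (fold changes, test statistics, p-values and FDR) were not used. An RPKM scales reads by transcript length and mapped reads, so a change in a few very abundant transcripts moves all others. Whole reads were recovered for 21718 transcripts (tolerance 0.01 read); they count reads on listed transcripts only, and their number limits the precision of low members.

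Transcripts above 0 in at least 1 liver were compared with limma 3.58.1 in R 4.3.3, on log2(RPKM + 0.5) after quantile normalization, allowing for a mean-variance trend; p-values were adjusted by Benjamini and Hochberg's method and called below 0.05; other steps used Python 3.11.15. The procedure was tested on simulated data. The study's methods state a test on square-root values; a log scale was used here and theirs was an alternative, beside pseudocounts of 0.1 and 1, no normalization, median scaling, a minimum mean RPKM of 1, no trend, animal numbers as blocks, summed transcripts per gene and each liver left out in turn. The labels number the animals 1 to 6 in each group without saying that a number is shared, and same-numbered livers did not deviate together (correlations from -0.067 to 0.032 over 11086 transcripts), so livers were not paired.

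Named are Cyp2e1, every called member, in each family the most abundant, the one with the smallest p and the largest rise and fall among members with a mean of at least 1, members of lists by inducer, sex and substrate, and the called and smallest-p genes of each partner list. Outside this rule are Cyp4v3, Onecut1, Por, Cyb5a, Ahr, Ppara, Cebpa, Cebpb, Bcl6, Cpt1a, Angptl4, Plin2, Fgf21, the cell markers and the remaining members. They were named after their values were seen. Members and lists were chosen with earlier results of these data known. RefSeq (GRCr8) gave names and promoter sequences; of its 60 gene symbols of these families, 15 did not match a listed name (among them Cyp1a2, Cyp2c12, Cyp2c7, Cyp2r1 and Cyp4a3) and were not analysed here.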

Additional observations from a re-analysis of the deposited data

Results flagged for a closer look

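In 4 of 64 groups of 6 livers tested (32 genes, 2 groups each), 1 liver lay apart from the other 5 by Dixon's criterion, which chance meets in about 1 of 20 groups. Control liver 3 was high in 3 of them. Its Cyp2d2 RPKM was 677, with the other control livers at 480 to 540. Its Cyp2d5 RPKM was 272, with the others at 211 to 226. Its RPKM of Alad, the enzyme of heme synthesis, was 143, with the others at 94.1 to 108. EtOH liver 4 was high for Cyp3a9, at 389, with the other EtOH livers at 194 to 254. The summed RPKM of all transcripts in control liver 3 was 577525, against 535264 to 548924 in the other control livers.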

How the results depend on the processing

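Counts near the threshold moved with nearly every choice. Against 1 called member (limma), the count was 2 with a pseudocount of 0.1 (Cyp4b1 and Cyp4v3), 2 with median scaling (Cyp4b1 and Cyp2e1), 4 with a minimum mean RPKM of 1 (these 3 and Cyp3a23/3a1, from 27 members and 7.76% of all transcripts called) and 3 with transcripts summed per gene. It was 0 with a pseudocount of 1, without normalization, without a trend, on square-root values and with the replicate block (limma in all but the square-root test; 7 had an unadjusted p below 0.05 in the fit described), and 0 to 2 with 1 liver left out. The replicate block left 113 calls among all transcripts, against 526, and 1 of 6 control livers correlated best with its own number. The Cyp2e1 log2 fold change passed the threshold at 0.42 with median scaling, 0.34 with the minimum of 1, 0.34 with summed transcripts and 0.32 as deposited in the exact permutation test, whose p is not adjusted; it was 0.30 to 0.38 with 1 liver left out.

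Called partner genes numbered 5, and 9 without normalization (1 higher, 8 lower), 3 on square-root values, 8 with the minimum of 1, 2 without a trend, 0 with the replicate block, 8 with summed transcripts and 2 to 7 with 1 liver left out. The sign turned without normalization for Cyp4f1 (-0.072), Cyp2d3 (-0.15), Cyp4f4 (-0.092) and Cyp2a2 (-0.0083), and with median scaling for Cyp2d3 (-0.059) and Cyp4f4 (-0.00066). With 1 liver left out it turned for Cyp2d2 (-0.066 to 0.0038), Cyp2d3 (-0.048 to 0.090), Cyp2d4 (-0.11 to 0.056), Cyp4f17 (-0.069 to 0.17) and Cyp4f39 (-0.25 to 0.10); none of these had an adjusted p below 0.05 in any fit. The cause of these changes was not tested. Members below a mean RPKM of 1 had at most 17 reads in a liver, which limits what could be seen in them.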

Other observations

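Cyp4a1 and Cyp4a2 have more than 1 listed transcript, and their minor ones were uneven between livers. The transcript of Cyp4a1 that ranked lowest was at 3.65 to 5.79 RPKM in the control livers, but at 0 in EtOH livers 2, 3 and 6 and at 3.11 to 4.17 in the other 3. In those same EtOH livers another minor transcript of Cyp4a1 was at 7.51, 9.99 and 9.40, against 3.19 to 3.83 in the others and 2.93 to 4.89 in controls. Neither passed the limma test (adjusted p = 0.202 and 0.359). Minor transcripts of Cyp4a2 switched between 0 and up to 9.23 RPKM in control livers, and between 0 and up to 13.1 in EtOH livers. None of the secondary transcripts of any member passed the limma test. The sources used here do not say how reads were divided between transcripts of a gene, and its part in these values was not tested.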
